A study of Mus musculus with 8 samples.

Results

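The 9 enzymes that carry carbon from HMG-CoA synthesis to lanosterol were examined in RNA-seq data of induced immature oligodendrocytes (iOLs) with and without Med23, a subunit of the Mediator complex that links transcription factors to RNA polymerase. They are Hmgcs1, Mvk, Pmvk, Mvd, Idi1, Fdps, Fdft1, Sqle and Lss, taken by gene symbol from the 24346 genes of the deposited expression table. All 9 were listed once and all 9 passed the filter on low values. In Med23-/- iOLs, 8 of the 9 were lower than in Med23+/+ iOLs, by 18.4% to 42.7% of the Med23+/+ mean, and none by more than 2-fold. Of all genes tested, 14.1% were lower, 15.9% were higher and 1.75% were lower with a fold change above 2. The 9 were chosen with earlier results of these data known. Among them Lss fell most, and Pmvk, 15.8% lower on average, did not pass the test.

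The RNA came from 4 Med23+/+ and 4 Med23-/- libraries of primary mouse oligodendrocyte precursor cells (OPCs), immunopanned from the brains of P7 pups for CD140a (PDGFRA), expanded with the mitogens PDGF-AA (10 ng/mL) and NT-3 (1 ng/mL), and sampled after 1 day of differentiation in 15 nM T3 with 10 ng/mL ciliary neurotrophic factor (CNTF). T3 is the active thyroid hormone and drives OPCs to differentiate. The Med23-/- cells carried floxed Med23 and Cre expressed from the Olig1 locus (Med23 fl/fl;Olig1-Cre), which acts in cells of the oligodendrocyte lineage, and the Med23+/+ cells came from littermates with floxed Med23 and no Cre. Both genotypes therefore carried the floxed alleles and received the same hormone and cytokine, and no untreated libraries were analysed here. Cre at the Olig1 locus was in the Med23-/- cells only, and its own effect was not tested. The strain, and whether each library came from a separate culture or animal, were not given in the sources used here, so p-values measure the spread between these libraries.

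Cholesterol is a main lipid of the myelin sheath, and oligodendrocytes make much of it themselves. Synthesis begins with acetyl-CoA, which is built into HMG-CoA and reduced to mevalonate. Mevalonate is phosphorylated and decarboxylated to isopentenyl diphosphate, the building block of all isoprenoids. These units are joined to farnesyl diphosphate, which can leave the path to prenylate proteins or to form ubiquinone and dolichol, and a pair of farnesyl groups is joined to squalene. Squalene is oxidised and closed into lanosterol, the first sterol. Transcription of these enzymes is known to be driven by SREBP2, which is released from the endoplasmic reticulum when its membrane is low in sterol, and which acts with factors such as Sp1 and NF-Y.

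Expression was given in FPKM, fragments per kilobase of transcript scaled for the size of the library, so values of different genes can be compared per length. How the libraries were scaled is not given in the sources used here. Genotypes were compared with limma on log2(FPKM + 1) over the 12328 genes whose mean was 1 FPKM or more, and a gene was called at a Benjamini-Hochberg adjusted p under 0.05. Fold changes are on this log2 scale, which barely changes them for genes as abundant as these 9. Across all genes tested, 14.1% were lower and 15.9% were higher in Med23-/- iOLs by this rule, and 1.75% were lower with a fold change above 2 as well. Beside each gene, the 4 libraries of the genotypes were also compared by an exact permutation test (two-sided), whose smallest possible p is 0.0286.

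Med23 itself was at 12.2 to 12.7 FPKM in the Med23+/+ libraries and 7.93 to 8.49 FPKM in the Med23-/- libraries (limma adjusted p = 0.000353), a value of the whole gene that does not show how much of the transcript kept the floxed part. The depth of the libraries is unknown, since no counts were used. Between 15941 and 16469 genes were above 0 in each library. The first principal component (42.4% of the variance) separated the genotypes, and the second (15.6%) separated replicates 1 and 2 from replicates 3 and 4 within each genotype. The labels name no batch. Xist, which is transcribed in female cells, was above 1 FPKM in 2 libraries, 1 of each genotype.

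The stage markers of the cells moved with genotype. By the same rule, 14.1% of all genes tested were lower and 15.9% were higher. All 6 genes listed for committed precursors and immature oligodendrocytes were lower in Med23-/- iOLs, with a summed level of 1573 to 1723 FPKM in Med23+/+ and 405 to 850.4 FPKM in Med23-/- libraries and a median log2 fold change of -1.51. Of 8 genes of myelinating oligodendrocytes, 6 were expressed enough to be tested and all 6 were lower (802 to 966.5 FPKM summed in Med23+/+, 213 to 394 FPKM in Med23-/-), while Mobp and Opalin did not exceed 0.486 FPKM in any library. Of 5 OPC genes, 3 were higher and none lower (620.4 to 808 FPKM, then 1029 to 1120.2 FPKM). Astrocyte genes summed to 107 to 154 FPKM in Med23+/+ and 88.4 to 142 FPKM in Med23-/- libraries, with 2 of 7 lower and 1 higher. These astrocyte counts are near the shares of all genes tested and are no result about the list. Neuronal genes summed to 34.5 to 58.9 FPKM and 74.7 to 149 FPKM, with 6 of 7 higher, and were highest in Med23-/- replicates 3 and 4. No microglial marker exceeded 1.06 FPKM, and 6 endothelial and mural markers summed to 0.673 to 1.27 FPKM and 1.29 to 3.61 FPKM. The part of these marker differences in the results on the enzymes was not tested. In bulk RNA, fewer cells of a type and less RNA per cell cannot be told apart.

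The level of the pathway as a whole is shown by the FPKM of the 9 enzymes added together. The sum was 1747, 1774, 1701 and 1541 FPKM in Med23+/+ replicates 1 to 4 and 1120, 1158, 1171 and 1050.2 FPKM in Med23-/- replicates 1 to 4. Every Med23-/- library was thus below every Med23+/+ library, and the Med23-/- mean (1125 ± 54.2 FPKM) was 66.5% of the Med23+/+ mean (1691 ± 104 FPKM; SD, n = 4 libraries each). Hmgcs1 alone made up 36.1% to 40.4% of the sum in Med23+/+ and 34.4% to 38.0% in Med23-/- libraries. The median log2 fold change of the 9 enzymes was -0.48, beside -0.01 for all genes tested. Of the 9, 8 passed the test as lower where 14.1% of all genes tested did, and 8 were lower without overlap between the libraries of the genotypes, where 15.3% of all genes tested were.

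**Figure D1:**
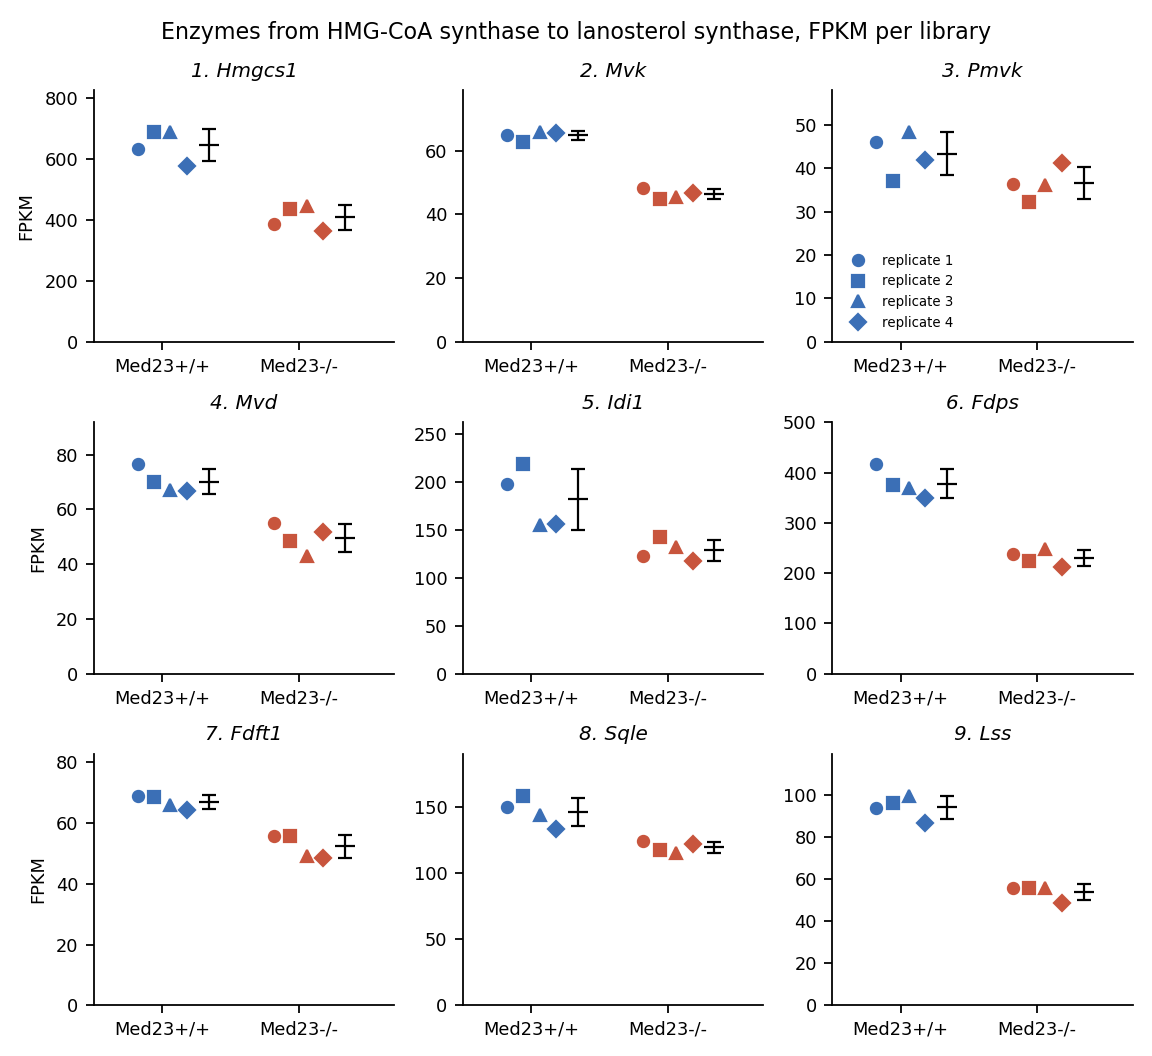
Expression of the 9 enzymes in pathway order, in FPKM per library. Each marker shape is a replicate number, blue is Med23+/+ and red is Med23-/-, and the bar beside each group is its mean with the SD (n = 4). In every panel except that of Pmvk the Med23-/- points lie below all Med23+/+ points, and each axis starts at 0.

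Hmgcs1 makes HMG-CoA from acetoacetyl-CoA and acetyl-CoA in the cytosol (chromosome 13, 119690379 to 119708260, plus strand; GENCODE vM21 on mm10). Its expression was 631, 686, 687 and 577 FPKM in Med23+/+ replicates 1 to 4. In Med23-/- replicates 1 to 4 it was 385, 436, 445 and 363 FPKM. The highest Med23-/- library was below the lowest Med23+/+ library. The mean fell from 645 ± 52.6 to 407 ± 39.8 FPKM (SD, n = 4 libraries each). This was a log2 fold change of -0.66 (95% interval -0.90 to -0.43; limma adjusted p = 0.00136).

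Hmgcs1 was the most abundant of the 9 in both genotypes, and its promoter shows the elements for which these genes are known. The 250 bases before its RefSeq start site (GRCm38.p6, the assembly of mm10) are printed 5′ to 3′ with capitals marking matches of a sterol regulatory element (TCACNCCAC, the site bound by SREBP), a GC box (GGGCGG, bound by Sp1) and a CCAAT box (CCAAT, bound by NF-Y), on either strand. On the opposite strand the last 2 read CCGCCC and ATTGG. The GC box was searched because the study asks about Sp1 and Med23.
Hmgcs1, chr13:119690101-119690350, plus strand: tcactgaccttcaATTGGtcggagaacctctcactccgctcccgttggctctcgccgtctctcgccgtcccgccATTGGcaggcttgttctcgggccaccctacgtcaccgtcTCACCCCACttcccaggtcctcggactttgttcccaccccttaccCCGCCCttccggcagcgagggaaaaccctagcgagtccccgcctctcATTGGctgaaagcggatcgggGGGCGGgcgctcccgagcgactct

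The sterol regulatory element lay at -137 to -129 from the start site of Hmgcs1, with GC boxes at -92 to -87 and -24 to -19 and CCAAT boxes at -237 to -233, -176 to -172 and -45 to -41. Of all 32851 promoter windows of the same length in the RefSeq table, 1.05% held the sterol element, 32.7% held a GC box and 33.8% held a CCAAT box. The matches of these motifs share no bases with each other.

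Mvk, the kinase that first phosphorylates mevalonate (chromosome 5, 114444269 to 114460591, plus strand), had the tightest values of the 9. It was at 64.8, 62.9, 65.8 and 65.6 FPKM in Med23+/+ replicates 1 to 4. The Med23-/- libraries had 48.4, 44.8, 45.4 and 46.6 FPKM. The genotypes were apart by many times the spread within each, 64.8 ± 1.34 against 46.3 ± 1.60 FPKM (SD, n = 4 libraries each), and gave a log2 fold change of -0.48 (95% interval -0.62 to -0.33; limma adjusted p = 0.000567). Its promoter is shown because it held the most CCAAT boxes, 5, together with 2 GC boxes and no match of the sterol element.
Mvk, chr5:114444019-114444268, plus strand: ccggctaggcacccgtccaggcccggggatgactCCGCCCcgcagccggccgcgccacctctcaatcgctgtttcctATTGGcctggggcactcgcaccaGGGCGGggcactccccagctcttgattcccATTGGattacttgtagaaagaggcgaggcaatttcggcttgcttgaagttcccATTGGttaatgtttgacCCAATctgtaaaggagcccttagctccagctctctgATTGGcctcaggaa

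Pmvk adds the next phosphate (chromosome 3, 89454541 to 89469013, plus strand) and was the least abundant of the 9 in both genotypes. Its expression was 46.0, 37.0, 48.3 and 41.9 FPKM in Med23+/+ replicates 1 to 4. In the Med23-/- libraries it was 36.3, 32.2, 36.1 and 41.3 FPKM. Med23+/+ replicate 2 was low and Med23-/- replicate 4 was high, and the genotypes overlapped. The means were 43.3 ± 4.96 and 36.5 ± 3.71 FPKM (SD, n = 4 libraries each), which gave a log2 fold change of -0.24 (95% interval -0.47 to -0.01) with a limma adjusted p of 0.111 and an exact permutation p of 0.0571. Without Med23+/+ replicate 2 the log2 fold change was -0.31 and passed the threshold (limma adjusted p = 0.0492).

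Mvd decarboxylates the product to isopentenyl diphosphate (chromosome 8, 122433601 to 122443422, minus strand). It was at 76.7, 70.2, 67.1 and 66.7 FPKM in Med23+/+ replicates 1 to 4. The Med23-/- libraries had 54.9, 48.3, 42.9 and 51.8 FPKM. No library overlapped, and Mvd fell by 29.5%, a log2 fold change of -0.50 (95% interval -0.70 to -0.30; limma adjusted p = 0.00306). The annotation holds a further gene, Gm20388, on the opposite strand over the whole of Mvd, which was not analysed here.

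Among these first 4 enzymes, 3 were thus lower by 28.5% to 36.9%, and the later of the kinases had a smaller difference that did not pass the test. The next 2 enzymes use that unit.

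Idi1 isomerises isopentenyl diphosphate to dimethylallyl diphosphate (chromosome 13, 8885501 to 8892451, plus strand). Its values were 198, 219, 155 and 156 FPKM in Med23+/+ replicates 1 to 4. They were 123, 142, 132 and 118 FPKM in the Med23-/- libraries. Replicates 1 and 2 of Med23+/+ were 1.34 times as high on average as replicates 3 and 4, the widest such gap among the 9, and the lowest Med23+/+ library still exceeded the highest Med23-/- library. The log2 fold change was -0.48 (95% interval -0.76 to -0.20; limma adjusted p = 0.0167). It was -0.65 within replicates 1 and 2 and -0.32 within replicates 3 and 4, where the limma adjusted p was 0.151.

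Fdps joins the units to geranyl and farnesyl diphosphate (chromosome 3, 89093588 to 89101959, minus strand), at the branch between sterols and other isoprenoids. Its expression was 417, 375, 369 and 349 FPKM in Med23+/+ replicates 1 to 4. In the Med23-/- libraries it was 237, 225, 249 and 211 FPKM. The genotypes were apart by 100.6 FPKM at their nearest libraries. The mean decreased by 39.0%, from 378 ± 28.7 to 230.4 ± 16.2 FPKM (SD, n = 4 libraries each). Its log2 fold change was -0.71 (95% interval -0.91 to -0.51; limma adjusted p = 0.000426).

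Idi1 and Fdps have close copies in the genome, and for these genes the level is less certain than the spread of the libraries shows. Transcripts of Fdps matched 5 processed pseudogenes over at least 200 bases at 90% identity or more, and those of Idi1 matched 3. The pseudogenes were not analysed here, nor were Gm43738, which shares exons with Fdps on the same strand, and Gm48342 and Gm48574, which lie on the opposite strand over exons of Hmgcs1 and Idi1. The authors' counting weighted reads that map to several places, and how such reads were shared is not shown by the values.

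Fdft1, squalene synthase, makes the first committed intermediate of sterols (chromosome 14, 63145150 to 63179578, minus strand). It was at 69.1, 68.7, 66.0 and 64.3 FPKM in Med23+/+ replicates 1 to 4. The Med23-/- libraries had 55.8, 55.6, 49.3 and 48.6 FPKM. The libraries did not overlap, and the decrease was 22.0%, a log2 fold change of -0.35 (95% interval -0.52 to -0.19; limma adjusted p = 0.00656). Fdft1 shares 774 bases on the opposite strand with the protease gene Ctsb, whose log2 fold change was -0.17 (limma adjusted p = 0.226). It also has 1 processed pseudogene of 97.4% identity, not analysed here.

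Sqle oxidises squalene to its epoxide and is a known rate-limiting step of the sterol branch (chromosome 15, 59315077 to 59331192, plus strand). Its values were 150.0, 159, 144 and 134 FPKM in Med23+/+ replicates 1 to 4. They were 124, 117, 115 and 122 FPKM in the Med23-/- libraries. The groups came within 9.59 FPKM of each other without overlapping. Sqle fell by 18.4%, the smallest decrease among the 8 that passed the test, with a log2 fold change of -0.29 (95% interval -0.46 to -0.12; limma adjusted p = 0.0188).

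Lss, lanosterol synthase, closes the epoxide into the sterol ring system (chromosome 10, 76531588 to 76557138, plus strand). It was at 94.1, 96.2, 99.9 and 86.8 FPKM in Med23+/+ replicates 1 to 4. The Med23-/- libraries had 55.6, 55.8, 56.0 and 48.5 FPKM. Replicate 4 was the lowest in both genotypes, and all Med23-/- libraries lay far below the Med23+/+ range. The mean fell by 42.7%, from 94.3 ± 5.51 to 54.0 ± 3.65 FPKM (SD, n = 4 libraries each). This was a log2 fold change of -0.79 (95% interval -0.97 to -0.62; limma adjusted p = 0.000124). An antisense gene, 4930483K19Rik, overlaps 14 exons of Lss and was at 1.58 to 4.70 FPKM. Its own log2 fold change, -0.20, did not pass the test (limma adjusted p = 0.581). Whether the authors' counting used strand is not given in the sources used here. The promoter of Lss is shown as that of the enzyme with the largest decrease. It held 2 GC boxes and 1 CCAAT box, and no match of the sterol element, in the 233 bases before the annotated start of the gene.
Lss, chr10:76531355-76531587, plus strand: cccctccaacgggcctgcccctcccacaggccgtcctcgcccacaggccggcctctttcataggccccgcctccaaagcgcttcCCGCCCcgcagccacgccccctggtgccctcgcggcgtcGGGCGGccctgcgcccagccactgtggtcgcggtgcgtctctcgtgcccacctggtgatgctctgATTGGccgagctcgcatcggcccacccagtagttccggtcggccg

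Promoter sequence was at hand in the RefSeq table for 6 of the 9 genes, Hmgcs1, Mvk, Pmvk, Mvd, Idi1 and Lss. A GC box was found in 5 of these 6, a CCAAT box in all 6 and the sterol element in 1. Of all windows in the RefSeq table, 32.7% held a GC box, 33.8% a CCAAT box and 1.05% the sterol element. These shares were not matched for base content, and the windows of the 6 genes were 47.6% to 73.6% G or C. Pmvk held no GC box and 1 CCAAT box before its upstream start site. A further RefSeq start site of Pmvk lies inside the gene, and its window held no match of the 3 motifs. The RefSeq start site of Idi1 lies 105 bases inside the annotated gene, and its 3 matches lie within that stretch. A match is a description of letters, and a window of 250 bases does not show what lies outside it. Only the form TCACNCCAC of the sterol element was searched, so a window without a match can still hold another form.

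**Figure D2:**
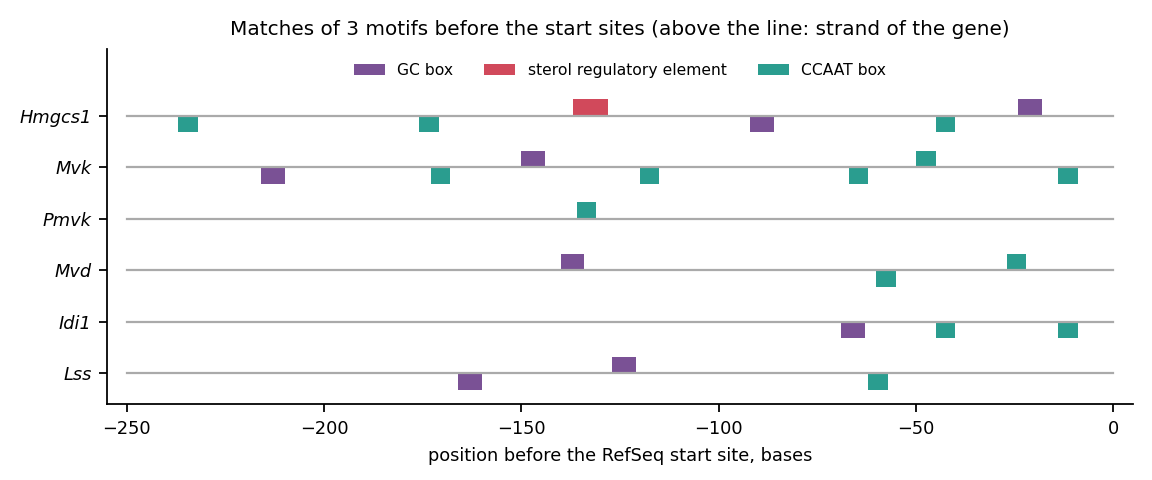
Matches of the sterol regulatory element, the GC box and the CCAAT box in the 250 bases before the RefSeq start sites of 6 enzymes. The horizontal axis is the distance from the start site in bases, marks above a line are on the strand of the gene and marks below on the opposite strand. Hmgcs1 has the single sterol element and Pmvk, shown at its upstream start site, has no GC box.

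The order of expression from step to step was nearly the same in both genotypes. The highest gene, Hmgcs1, exceeded the lowest, Pmvk, by 14.9 times in Med23+/+ and by 11.2 times in Med23-/- iOLs. In both genotypes Hmgcs1 was followed by Fdps, Idi1, Sqle and Lss. Hmgcs1 and Fdps were apart from each other and from all the rest, whereas Idi1 and Sqle overlapped, and Sqle was above Idi1 in 2 of the 4 Med23-/- libraries. In Med23+/+ iOLs Lss stood above Mvd in all 4 libraries without overlap, by 1.34 times. In Med23-/- iOLs Lss (54.0 FPKM) overlapped Fdft1 (52.3 FPKM), and the 4 genes Lss, Fdft1, Mvd and Mvk followed each other with overlapping neighbours. Pmvk, the lowest, was still at percentile 85.0 of all genes tested in Med23+/+ and at percentile 83.0 in Med23-/- iOLs.

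The 9 differences ranged from 15.8% for Pmvk to 42.7% for Lss, and whether single enzymes departed from the others was tested within libraries. Each enzyme was set against the mean of the other 8 in the same library, on the log2 scale, which nearly cancels any scaling of a library. No such relative difference passed 0.05 after adjustment over the 9 enzymes, which with 4 libraries against 4 would need at least 6 enzymes at the smallest p.

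For Lss the relative difference was -0.33 (exact permutation p = 0.0286; 0.0643 adjusted over the 9 enzymes), and all Med23-/- libraries were below all Med23+/+ libraries. For Fdps it was -0.24, also with no overlap and with the same p and adjusted p. It was 0.24 for Sqle and 0.17 for Fdft1, in the opposite direction, without overlap and again with the same p and adjusted p. By construction the relative differences of the 9 enzymes cancel out when added. Negative values for some enzymes therefore require positive values for others, and the tests are not independent of each other. Expression in Med23-/- iOLs was 78.0% of the Med23+/+ mean for Fdft1, 81.6% for Sqle and 57.3% for Lss, the last 3 steps. For Pmvk the relative difference was 0.29 with overlap (exact permutation p = 0.0571, adjusted p = 0.103), and for Hmgcs1 it was -0.18 with overlap (exact permutation p = 0.143, adjusted p = 0.214). Mvk, Mvd and Idi1 had relative differences of 0.03, 0.00 and 0.02, and the sign of each of these 3 turned when a library was left out.

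**Figure D3:**
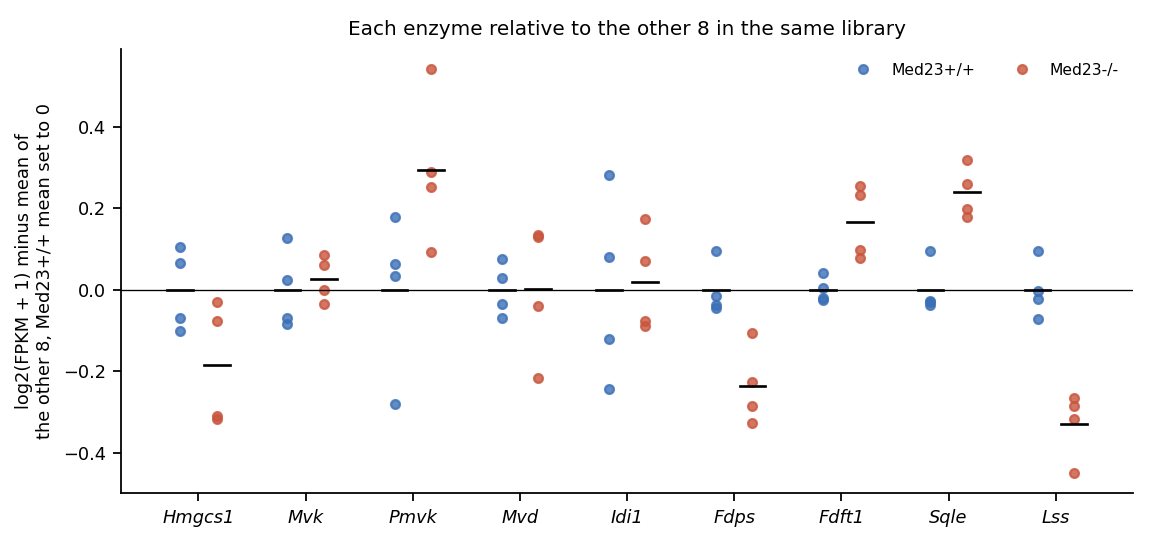
Each enzyme relative to the other 8 in the same library, as log2(FPKM + 1) minus their mean, with the Med23+/+ mean of each enzyme set to 0. Blue points are Med23+/+ libraries, red points are Med23-/- libraries and black lines are means (n = 4). Lss and Fdps lie below and Sqle and Fdft1 above the Med23+/+ points without overlap.

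The enzymes around the 9 were described from lists of the same pathway. Of 8 genes for acetyl-CoA supply and HMG-CoA metabolism, 7 were tested, 4 were lower (14.1% of all genes tested were) and none higher, with a median log2 fold change of -0.39, beside -0.01 for all genes tested. The mitochondrial citrate carrier Slc25a1, which exports the citrate from which cytosolic acetyl-CoA is made, fell from 87.8 ± 11.0 to 49.0 ± 3.37 FPKM (SD, n = 4 libraries each), by 0.82 on the log2 scale (limma adjusted p = 0.000348).

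After lanosterol, 7 of 10 enzymes were lower and 1 was higher, with a median of -0.37, where 14.1% of all genes tested were lower and 15.9% higher. Hsd17b7, which reduces the ketone left by demethylation, fell from 28.3 ± 3.17 to 16.9 ± 1.15 FPKM (SD, n = 4 libraries each). Its log2 fold change was -0.71 (limma adjusted p = 0.000534). Lbr, a sterol reductase that also anchors chromatin at the nuclear envelope as the lamin B receptor, rose from 19.6 ± 1.26 to 30.4 ± 2.79 FPKM (SD, n = 4 libraries each), by 0.60 on the log2 scale (limma adjusted p = 0.000868). The count of lower genes was 5 within replicates 1 and 2 alone and 0 within replicates 3 and 4 alone, with 2 libraries against 2. In these fits 724 and 566 of the 12328 genes tested were lower. With this split as a covariate over all 8 libraries the count was 7. With each library left out in turn it ran from 4, without Med23+/+ replicate 1, to 6.

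On the branch that leaves at farnesyl and geranylgeranyl diphosphate, 3 of 14 genes were lower and none higher, with a median of -0.20. This count is near the 14.1% of all genes tested that were lower, and is no result about the branch. Fnta, the alpha subunit shared by the enzymes that attach farnesyl and geranylgeranyl groups to proteins, had the largest decrease there, from 68.8 ± 13.5 to 34.2 ± 6.89 FPKM (SD, n = 4 libraries each; log2 fold change -0.99, limma adjusted p = 0.00192). Dhdds, a subunit of the enzyme that makes the dolichol chain, was at the other end with 0.14 (limma adjusted p = 0.266).

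Of 12 genes for SREBP control and sterol uptake, 11 were tested, 4 were lower and none higher, with a median of -0.15, beside 14.1% lower among all genes tested. The count of lower genes was 1 without Med23+/+ replicate 1 or Med23-/- replicate 1, 3 without Med23+/+ replicate 4 and 2 without any other library. Counts of 1 or 2 are near the share of all genes. Npc1, which exports cholesterol from lysosomes, had the highest log2 fold change of the list, 0.19 (limma adjusted p = 0.203). Srebf2, the gene of SREBP2, was chosen for mention after its values were seen. Its mean was 114 ± 7.81 FPKM in Med23+/+ libraries and 119 ± 12.8 FPKM in Med23-/- libraries (SD, n = 4), a difference of 0.06 on the log2 scale (95% interval -0.16 to 0.27; limma adjusted p = 0.693).

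**Figure D4:**
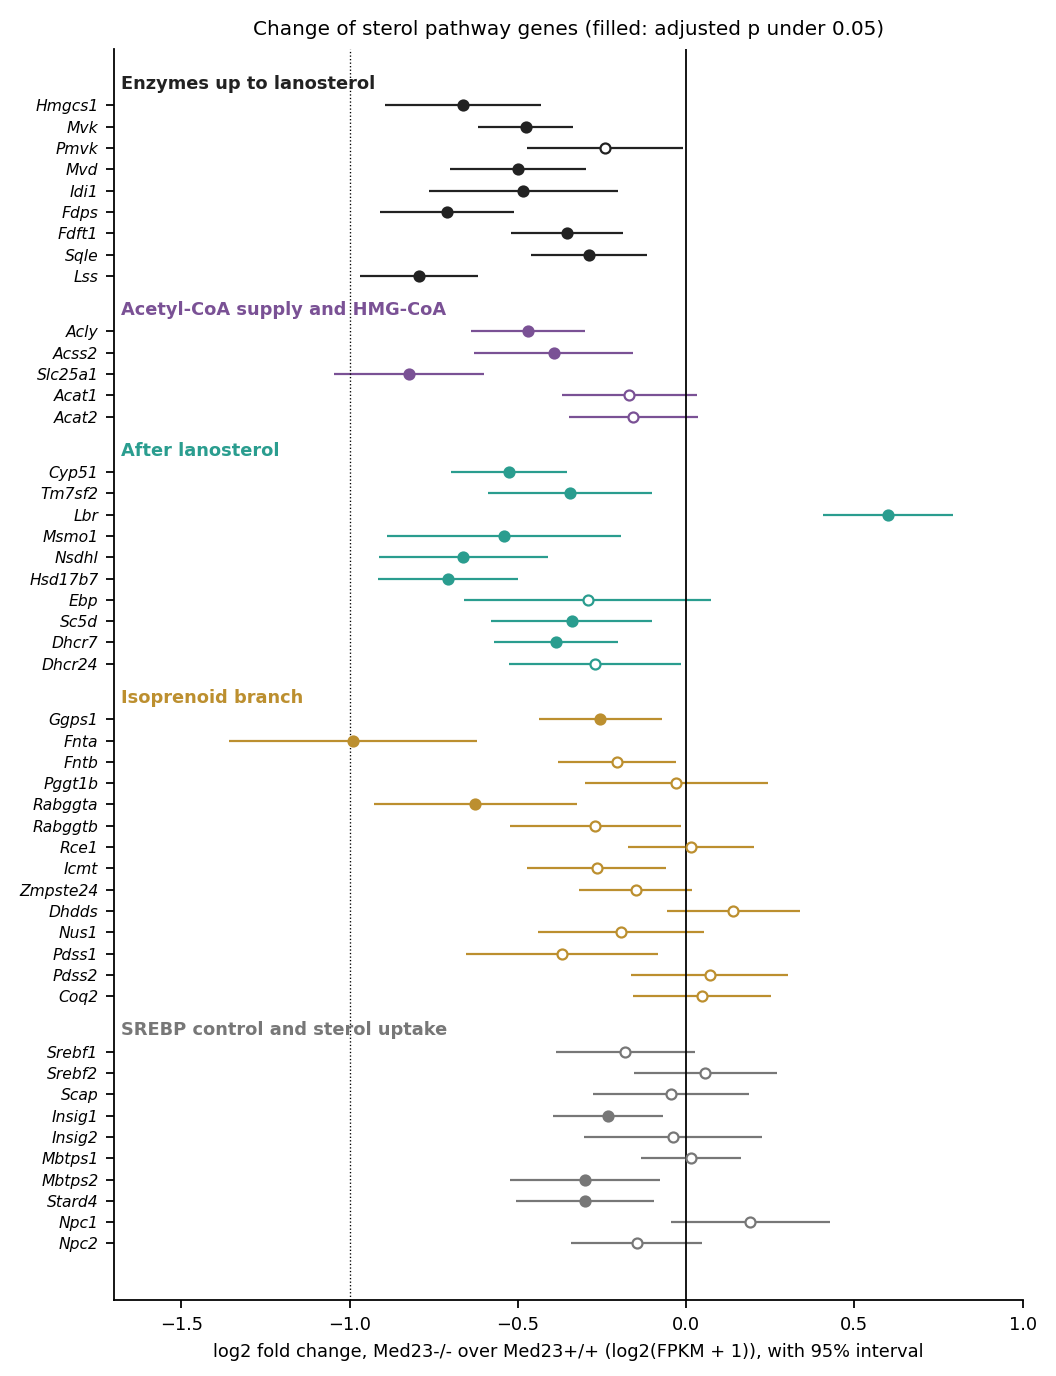
Log2 fold changes (Med23-/- over Med23+/+, on log2(FPKM + 1)) with 95% intervals from limma, for the 9 enzymes and for pathway genes around them. Filled points have an adjusted p under 0.05 and the dotted line marks a 2-fold decrease, which no interval of the 9 enzymes reaches. Genes of the lists that are not reported here are not drawn.

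None of the 9 enzymes passed the second call rule of a fold change above 2, by which 1.75% of all genes tested were lower, and no 95% interval of an enzyme reached a log2 fold change of -1. The interval of Lss came nearest, at -0.97. Each of the 9 was below 0 under every alternative processing and without each library, and 8 or 9 were called lower whenever a library was left out. Under quantile normalization 5 were called lower, and Idi1, Fdft1 and Sqle were not (limma adjusted p = 0.0750, 0.0567 and 0.148). Within replicates 1 and 2 alone 6 were called lower, and within replicates 3 and 4 alone 2 were, with 2 libraries against 2. Of the 12328 genes tested, 724 and 566 were lower in these fits, against 1738 with all 8 libraries. With this split as a covariate over all 8 libraries, 8 of the 9 were called lower.

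Deviations of the libraries from their genotype means were only partly shared by the enzymes. Averaged over the 9, the deviations of replicates 1 to 4 were 0.062, 0.033, 0.0012 and -0.096 on the log2 scale in Med23+/+ and 0.034, 0.010, -0.0029 and -0.042 in Med23-/- iOLs. Same-numbered libraries thus stood in the same order in both genotypes, and replicate 4 was the lowest in each. Idi1 had the widest deviations, from -0.21 to 0.28 on the log2 scale in Med23+/+ libraries, and Mvk had the narrowest, from -0.04 to 0.02. Pmvk was at -0.21 in Med23+/+ replicate 2 and 0.18 in Med23-/- replicate 4, where Hmgcs1 was at 0.09 and -0.16. Over the 8 libraries, the correlation of each enzyme's deviation with the mean deviation of the other 8 had a median of 0.32, beside a median of -0.11 for the 9434 genes whose mean was 5 FPKM or more, set against the mean deviation of all 9. Only Sqle and Fdps of the 9 were among the 5% of genes with the highest correlation (0.58 or more).

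**Figure D5:**
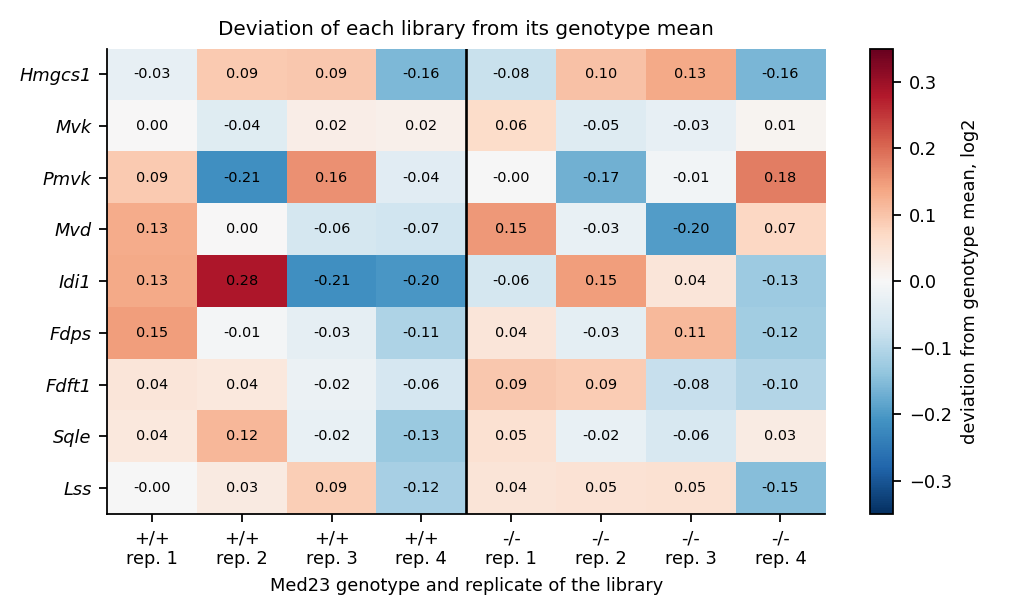
Deviation of log2(FPKM + 1) from the mean of the genotype, for the 9 enzymes (rows) in the 8 libraries (columns), with the value in each cell. Red is above and blue is below the genotype mean. Idi1 is high in Med23+/+ replicates 1 and 2, and Pmvk is low in Med23+/+ replicate 2 and high in Med23-/- replicate 4.

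The 10 other genes whose deviations correlated most with those of the enzymes were Strada, Nat14, Dcx, Tctex1d2, Med11, 4930488L21Rik, Dusp12, Sumf2, Gatc and Ppp2r1a, with Pearson correlations of 0.94 to 0.88 over the 8 libraries, whose points share library and unknown depth. None of the 10 is in the lists of sterol or isoprenoid synthesis. These names were not stable, since 2 of the 10 were again among the 10 highest by Spearman correlation, 0 without Med23+/+ replicate 4 and at most 6 without any other library. Genes of the lists did occur further down the ranking. The 5% of genes with the highest correlation held 3 of 10 ranked genes after lanosterol and 2 of 11 for SREBP control and uptake. They also held 1 of 7 for acetyl-CoA supply and 1 of 14 on the isoprenoid branch.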

How the data were processed

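RNA-seq was performed on 8 libraries, 4 Med23+/+ and 4 Med23-/-. Sequencing was on an Illumina X-10, after which the authors used FastQC, Cutadapt, Tophat2 (mm10, default settings) and cuffdiff (options -b and -u, bias correction and weighting of multiply mapped reads), and deposited FPKM per library. Versions, annotation and library normalization are not given in the sources used here. The deposited table also holds the authors' mean FPKM per genotype, log2 fold change, test statistic, p-value, q-value and significance mark, which were not used. No counts were used, so intervals cover the spread of libraries only.

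Values were taken as log2(FPKM + 1) without further scaling, for 12328 of 24346 genes, and fitted with limma 3.58.1 in R 4.3.3 (lmFit, eBayes with trend, no covariate). The test was checked on simulated data. The members and gene lists were chosen with earlier results of these data known. Genes named are the 9 enzymes, Med23, the ends of each list and the 10 genes of highest likeness. A few genes named by this rule are left out here. Gene coordinates and overlaps come from GENCODE vM21 and promoters from RefSeq (GRCm38.p6). Close copies were matched at 90% identity over 200 bases. Alternatives were another pseudocount, other filters, quantile normalization, median-ratio scaling, no trend, sample weights, the replicate block and leaving out each library. Chosen after seeing the data were the split into replicates 1 and 2 against 3 and 4, and Xist level as a covariate. Further steps used scipy 1.17.1, pandas 2.3.3 and numpy 2.4.6 under Python 3.11.15, with matplotlib 3.10.9 for plots.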

Additional observations from a re-analysis of the deposited data

Results flagged for a closer look

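Lss was at 48.5 FPKM in Med23-/- replicate 4, below the other Med23-/- libraries (55.6 to 56.0 FPKM), with a gap to the nearest of them that was 0.95 of the range of the genotype, above Dixon's critical value for 4 libraries. It was 1 of 22 groups of 4 libraries examined, and chance marks about 1 group in 20. Without this library the log2 fold change of Lss was -0.74 (limma adjusted p = 0.000223), against -0.79 with it. Med23+/+ replicate 4 was also the lowest of its genotype.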

How the results depend on the processing

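Of the 9 enzymes, all had a log2 fold change below 0 under every alternative, and Mvk and Lss passed the threshold under every one that did not add a fold limit. Under quantile normalization 5 enzymes were called lower, the median of the 9 was -0.37, and Idi1 (-0.36), Fdft1 (-0.24) and Sqle (-0.17) no longer passed, with 4 genes after lanosterol and 1 gene of SREBP control and uptake called lower. The median of all genes moved by less than 0.1 under this scaling, and the cause was not tested. A mean of at least 5 FPKM gave 1281 genes higher, from fewer genes tested. Sample weights gave 5 lower genes on the isoprenoid branch, and Xist level as a covariate gave 2 for SREBP control and uptake.

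With replicates 1 and 2 only, 724 genes were lower and 791 higher, acetyl-CoA supply and SREBP control had 2 lower genes each, and Fdft1 (-0.30) and Sqle (-0.35) did not pass. With replicates 3 and 4 only, 566 genes were lower and 845 higher. There 2 enzymes, 0 genes after lanosterol and 1 gene of SREBP control were called, and Hmgcs1 (-0.65), Mvd (-0.50), Idi1 (-0.32), Fdps (-0.64), Fdft1 (-0.41) and Sqle (-0.23) did not pass. These fits hold fewer samples. With a fold change above 2 as well, 216 genes were lower and 367 higher, with 0 enzymes, 1 gene of acetyl-CoA supply, 0 after lanosterol, 0 on the isoprenoid branch and 0 of SREBP control. The fold change was taken on log2(FPKM + 1), where Fnta of the isoprenoid branch, at -0.989, fell just short of the limit. Its mean FPKM, 68.84 in Med23+/+ and 34.22 in Med23-/- libraries, differed by slightly more than 2-fold.

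With each library left out in turn, genes lower after lanosterol ran from 4 to 6 and those of SREBP control from 1 to 3. Pmvk ran from -0.31 to -0.18 and passed the threshold only without Med23+/+ replicate 2. The relative change of Mvk ran from -0.00052 to 0.070, of Mvd from -0.043 to 0.074 and of Idi1 from -0.061 to 0.11, and that of Mvd was -0.0014 with a pseudocount of 0.1. Of the 10 genes of highest likeness, 0 to 6 were found again, and 2 by Spearman correlation.

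The labels do not say that a replicate number marks a shared animal, litter or day. Over the genes tested the correlations of the deviations of same-numbered libraries were 0.13, -0.10, -0.03 and 0.16, and not every library correlated best with its own number, so the numbers were not taken as pairs. The second principal component nevertheless separated replicates 1 and 2 from 3 and 4 in both genotypes, and a shared origin of same-numbered libraries was not tested further. With the replicate block, 1835 genes were lower and 2085 higher, 8 enzymes were lower and Pmvk had a limma adjusted p of 0.0710, so that no call on an enzyme changed, and the relative changes cannot go below an exact p of 0.125 with 4 pairs. Depth limits are unknown, since the values are FPKM.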
